A study of Mus musculus with 49 samples.

Results

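The BCL2 family genes followed here are 10 genes that set the threshold for mitochondrial cell death: the anti-apoptotic genes Bcl2, Mcl1, Bcl2l1, Bcl2a1b and Bcl2a1d, the effectors Bax and Bak1, and the BH3-only genes Bcl2l11, Bbc3 and Bid. They were taken by their Ensembl identifiers, not by a cutoff on their values, from a deposited table of 38253 genes in 49 mouse samples. The list itself was chosen with earlier results of these data known. A row was found for 9 of the 10. The identifier of Bcl2a1d had none, so that gene was not analysed here.

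The samples belong to a study of whether the normal cell in which the MLL-AF9 fusion starts an acute myeloid leukaemia shapes the leukaemia that follows. RNA was sequenced from 30 samples of normal haematopoietic cells in 6 groups and from 19 leukaemias in 4 groups. The stem cells were of the long-term and the short-term kind (LT-HSC and ST-HSC, 5 samples each). The progenitors were multipotent (MPP, 6 samples), common myeloid (CMP, 5), granulocyte-macrophage (GMP, 5) or megakaryocyte-erythrocyte (MEP, 4). The leukaemias carry the name of the transduced cell, with 3 samples of STHSC:MA9, 4 of CMP:MA9 and 6 each of MPP:MA9 and GMP:MA9. All mice were C57BL/6J, with a WT genotype and an age of 6 to 12 weeks on the labels, and none of the sequenced leukaemias has LT-HSC or MEP as its origin. Normal cells were sorted from lineage-depleted marrow by Sca-1, c-Kit, CD150, CD34 and the Fcγ receptor. For the leukaemias, freshly sorted cells received MLL-AF9 and GFP from 1 retroviral vector, with expression driven by the viral promoter rather than the Mll locus, and were injected into sublethally irradiated mice. The labels give bone marrow as the tissue of every sample, whereas the study's methods state that the leukaemia RNA came from GFP+ spleen cells. Organ and disease therefore cannot be told apart in any comparison of leukaemia with normal cells, and neither can irradiation of the host, viral transduction and the fusion itself. Leukaemic mice were killed once ill, and in the study median survival after transplant was longest for GMP:MA9. The age on the labels may therefore not be the age of these mice at sampling. Host age and time since transplant cannot be told apart from disease, nor fully from origin. Each sample came from its own mouse, in 2 replicate experiments that the labels do not assign to samples, so their part in any difference between groups was not tested.

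Proteins of the BCL2 family share BCL2 homology (BH) domains and meet on the outer mitochondrial membrane. The effectors BAX and BAK1 open that membrane and release cytochrome c, the anti-apoptotic members bind and restrain them, and BH3-only proteins either occupy the anti-apoptotic members or activate the effectors directly. In blood formation MCL1 is needed by stem cells and by most committed cells, BCL-XL (Bcl2l1) by maturing red cells and platelets, and BCL2 by lymphocytes, whereas A1 (Bcl2a1) is found mainly in activated lymphocytes and myeloid cells. Part of their control is through protein turnover and phosphorylation, which transcript levels do not show.

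Values are FPKM, fragments scaled to transcript length and to the mapped fragments of the library, so levels of different genes can be compared per length. The libraries summed to 694414 to 955433 FPKM and listed 15282 to 17852 genes above 0. Mitochondrially encoded genes took 12.5 to 36.7% of the sum, and the relative depth read from the steps between low values ran from 0.49 to 1.55. The mitochondrial share was 24.6 to 36.7% in LT-HSC and ST-HSC and 12.7 to 19.8% in STHSC:MA9 and MPP:MA9. It was 12.5 to 34.5% in the other groups, with the top value in GMP:MA9 replicate 2. Its part in the differences below was not tested. Marker genes fitted some labels better than others. The summed level of 3 multipotent progenitor genes (Flt3, Cd34, Dntt) was highest in MPP (542 to 622 FPKM). That of 5 granulocyte-macrophage progenitor genes was highest in GMP (16901 to 25493 FPKM). The sum of 7 stem cell genes was at most 184 FPKM in CMP, GMP and MEP. Its median was highest in MPP (443 FPKM), above those of LT-HSC and of ST-HSC (365 FPKM). Of these 7, Procr was at 0 in every MEP sample, but 6 averaged above 1 FPKM there. Summed over 8 mature granulocyte genes, MEP replicate 4 had 3396 FPKM and the other MEP samples 45.9 to 517 FPKM. Over 5 B cell genes, MEP replicates 3 and 4 had 82.4 and 109 FPKM, against 11.3 and 11 FPKM in replicates 1 and 2. The sum of 9 erythroid and megakaryocyte genes was 3325 to 5257 FPKM in MEP. ST-HSC replicates 2 (4916 FPKM) and 5 (4807 FPKM) and LT-HSC replicate 1 (3949 FPKM) lay in that range. Against their labels, LT-HSC replicates 4 and 5 and ST-HSC replicates 4 and 5 had sums of 8744 to 74479 FPKM over 8 mature granulocyte genes, against 21.9 to 1210 FPKM in the other LT-HSC and ST-HSC samples, and 3 of them also had 27877 to 51218 FPKM of erythroid and megakaryocyte genes. Leaving these 4 libraries out of the tests below changed 3 calls for single members: Bax in CMP:MA9 against CMP no longer passed (0.48, adjusted p = 0.053), and Bcl2l1 from CMP to GMP (-0.58, 0.0334) and Mcl1 from CMP to MEP (-0.40, 0.03) then passed. In the leukaemias the summed level of 6 monocyte and macrophage genes was 364 to 1021 FPKM and did not overlap the normal samples (4.7 to 219 FPKM), with none of the 6 at 0 in any leukaemia group. Because these are bulk samples, fewer cells of a type and less RNA per cell cannot be told apart.

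The mouse A1 genes are shown first, since their likeness limits what a value for Bcl2a1b means. In the GENCODE M1 annotation of NCBIM37 (mm9), the coding sequences of Bcl2a1b, Bcl2a1d and Bcl2a1a are each 519 bases long. Bcl2a1d differs from Bcl2a1b at 6 positions (98.8% identity) and Bcl2a1a at 11 (97.9% identity). The first 120 coding bases hold 7 of the 12 positions at which the 3 genes are not all the same, and these are in capitals.
Bcl2a1b: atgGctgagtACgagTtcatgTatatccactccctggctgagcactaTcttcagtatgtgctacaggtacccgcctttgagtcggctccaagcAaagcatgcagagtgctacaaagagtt
Bcl2a1d: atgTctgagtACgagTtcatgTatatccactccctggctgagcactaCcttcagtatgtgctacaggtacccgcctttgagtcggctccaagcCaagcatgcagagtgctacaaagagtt
Bcl2a1a: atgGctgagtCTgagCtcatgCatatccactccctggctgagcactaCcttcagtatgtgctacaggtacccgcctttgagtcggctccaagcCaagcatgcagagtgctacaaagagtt
Of the 31-base windows of the Bcl2a1b transcripts, 88.2% also occur in another gene, so reads could be split among the copies in a way the deposited values do not show. The value for Bcl2a1b is therefore uncertain as a level of that copy. Shared windows made up 18.2% of Bid, which overlaps Bcl2l13, 12.1% of Bak1, which overlaps Ggnbp1, and 7.29% of Bcl2. They were at most 0.307% in Bcl2l11, Bcl2l1, Mcl1, Bax and Bbc3.

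The 250 bases before the annotated start are shown for 4 of the members that moved in the leukaemias and have 1 annotated start each, with letters matching any of 7 searched motifs in capitals (RefSeq, GRCm38.p6, read on the strand of the gene). Bax and Bak1 also moved and have 1 annotated start each, but their windows are not shown. Bcl2 is at chr1:106714291-106714540 (minus strand), Mcl1 at chr3:95658471-95658720 (plus), Bcl2a1b at chr9:89199023-89199272 (plus) and Bid at chr6:120916825-120917074 (minus).
Bcl2: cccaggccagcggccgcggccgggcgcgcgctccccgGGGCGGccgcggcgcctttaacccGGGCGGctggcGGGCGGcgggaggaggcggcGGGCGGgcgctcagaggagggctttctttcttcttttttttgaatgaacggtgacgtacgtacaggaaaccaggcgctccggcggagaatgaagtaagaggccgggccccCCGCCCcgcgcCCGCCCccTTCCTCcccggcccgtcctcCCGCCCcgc
Mcl1: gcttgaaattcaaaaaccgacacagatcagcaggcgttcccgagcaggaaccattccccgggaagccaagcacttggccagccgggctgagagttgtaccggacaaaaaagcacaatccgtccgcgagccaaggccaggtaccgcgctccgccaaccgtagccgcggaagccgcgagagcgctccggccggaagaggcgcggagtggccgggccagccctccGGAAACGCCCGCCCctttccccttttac
Bcl2a1b: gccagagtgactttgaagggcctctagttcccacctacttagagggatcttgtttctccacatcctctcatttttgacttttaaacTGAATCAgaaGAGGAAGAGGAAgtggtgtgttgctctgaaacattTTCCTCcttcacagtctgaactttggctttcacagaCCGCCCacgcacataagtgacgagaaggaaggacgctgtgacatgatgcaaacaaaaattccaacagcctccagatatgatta
Bid: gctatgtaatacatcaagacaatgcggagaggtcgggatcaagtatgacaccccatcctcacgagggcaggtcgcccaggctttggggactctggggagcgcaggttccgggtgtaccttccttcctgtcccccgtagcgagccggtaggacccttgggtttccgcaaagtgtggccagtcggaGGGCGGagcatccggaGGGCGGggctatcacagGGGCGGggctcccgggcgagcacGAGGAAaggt
Both strands were searched for the GC box, spelled GGGCGG, and for the CCAAT box by its own letters. The TATA box was read as TATAAA and the AP-1 motif as TGANTCA. The core of PU.1 motifs, a myeloid factor, was read as GAGGAA and the E-box as CACGTG, and the seventh motif was one like an NF-kB site. The Bcl2 window was 74.8% G or C with 7 GC boxes, and the Bid window 63.6% with 3. The Mcl1 window (64.4%) held 1 GC box that overlaps a match to the NF-kB-like letters. The Bcl2a1b window was poorest in G and C of these 4 (44.8%) and held 3 PU.1 cores, of which 2 adjoin, 1 GC box and 1 AP-1 match. The Bcl2 and Bid windows also held 1 PU.1 core each. Among all 32851 windows of this length, 32.7% held a GC box, 23.3% a PU.1 core, 6.75% an AP-1 match and 4.65% an NF-kB-like match. CCAAT (33.8% of all windows), TATAAA (12.4%) and CACGTG (6.02%) were not matched in these 4. A match describes letters and not binding, which was not measured here.

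Expression was next compared between each leukaemia and the normal cell it was started from, on log2(FPKM + 1) with limma and Benjamini-Hochberg adjustment over all 12600 genes that averaged at least 1 FPKM in these 8 groups. Every fold change below is on that scale, which understates the change of low genes. In the mean of the 4 origins, Mcl1, Bcl2a1b, Bax, Bid, Bcl2l11 and Bak1 rose and Bcl2 fell, while Bcl2l1 did not pass the test. Mcl1 rose by 1.00 ± 0.07 (SE), Bcl2a1b by 2.79 ± 0.26, Bid by 0.88 ± 0.08 and Bax by 0.70 ± 0.10, and Bcl2 fell by 1.19 ± 0.14 (adjusted p = 2.32e-09 for Bcl2, 19 leukaemias against 21 normal samples). Both sides of the family thus contained genes that rose. Bcl2a1b passed the filter only through the leukaemias, so it had to differ and its place in each count of higher members is no support for them, and Bbc3 did not pass the filter.

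**Figure D1:**
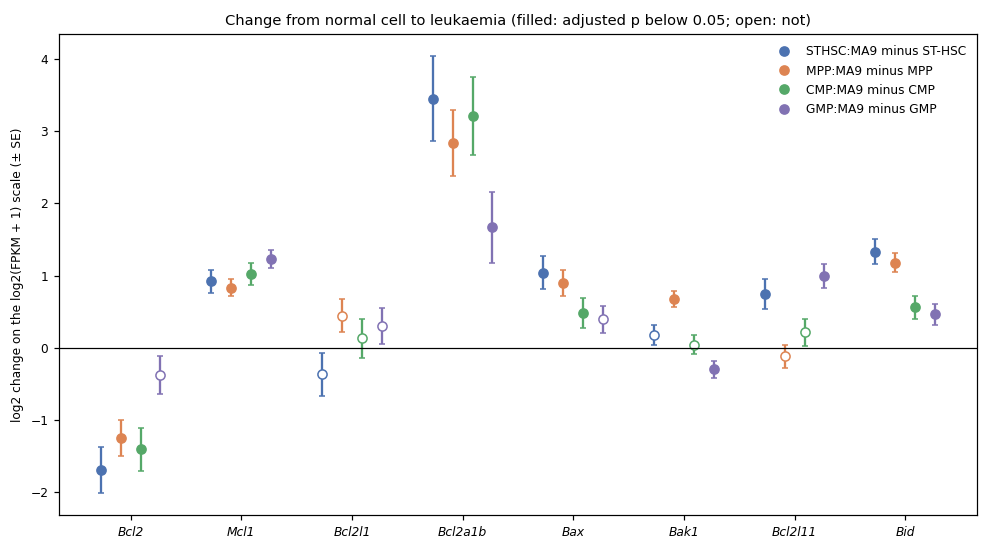
Log2 change of 8 BCL2 family genes from normal cell to leukaemia for each of the 4 cells of origin, on the log2(FPKM + 1) scale; points are limma estimates, bars ± 1 SE, and filled points passed at an adjusted p below 0.05. Bcl2 lies below 0 and Mcl1, Bcl2a1b, Bax and Bid above 0 at every origin, although the GMP:MA9 points of Bcl2 and Bax are open.

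These counts stand against a background in which most genes differed. In the mean of the 4 origins 34.4% of all tested genes passed as higher and 42.9% as lower, and 6 of the 8 tested members were higher and 1 was lower. For STHSC:MA9 against ST-HSC, 5 members were higher (background 23.8%) and 1 lower (24.6%). For MPP:MA9 against MPP, 5 were higher (27.7%) and 1 lower (34.8%). For CMP:MA9 against CMP, 4 were higher (23.9%) and 1 lower (36%). For GMP:MA9 against GMP, 4 were higher (29.7%) and 1 lower (28.7%). The median log2 change of the members was 0.83, 0.75, 0.34 and 0.43 in that order, beside -0.04, -0.09, -0.16 and 0.00 for all tested genes. Changes of more than 2-fold were passed by 4, 3, 3 and 2 members, beside 24.2%, 27.1%, 27.8% and 22.4% of all genes. Bcl2a1b entered each of these medians and each 2-fold count. Since it had to differ, its place there, and among the 6 named next, is no support. Without the 4 libraries rich in granulocyte genes, the changes in STHSC:MA9 were -1.77 for Bcl2 (adjusted p = 0.00014), 1.00 for Mcl1 (9.84e-06), 3.34 for Bcl2a1b (9.62e-05), 0.96 for Bax (0.00263), 0.72 for Bcl2l11 (0.0119) and 1.26 for Bid (1.35e-06), and all 6 still passed. The size of the change differed among the 4 origins for 4 of 8 members by an F test (38% of all genes): Bak1, Bcl2l11, Bid and Bcl2.

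**Figure D2:**
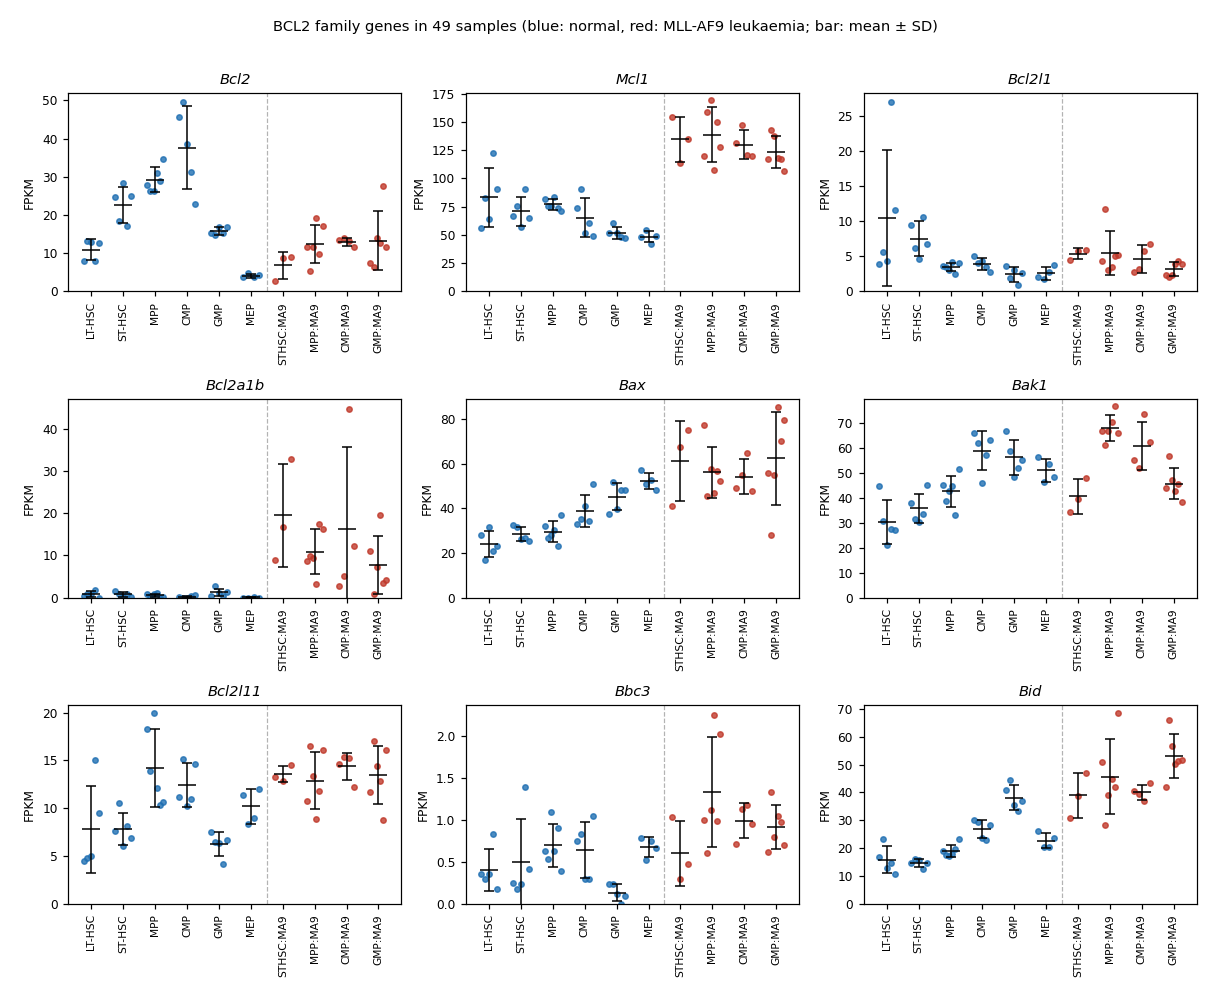
FPKM of 9 BCL2 family genes in each of 49 samples (points) by group, with the group mean ± SD (bars, cut at 0); blue points are normal cells, red points leukaemias, and each panel has its own linear axis from 0. Mcl1 is at least 106.80 FPKM in every leukaemia, Bcl2 peaks in CMP at a mean of 37.6 FPKM, and Bcl2a1b is at most 2.68 FPKM in every normal sample.

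Bcl2 (ENSMUSG00000057329, NCBIM37 chr1:108434755-108610851, minus strand) encodes the founding anti-apoptotic member. Its level in LT-HSC replicates 1 to 5 was 7.85, 13.19, 12.84, 7.86 and 12.53 FPKM, and in ST-HSC it was 24.58, 18.32, 28.31, 17.11 and 24.87 FPKM. It ran from 26.33 to 34.73 FPKM in MPP (median 28.4) and was 45.62, 49.63, 38.53, 31.29 and 22.80 FPKM in CMP. GMP lay in a narrow band (15.38, 14.65, 16.73, 15.28 and 16.81 FPKM) and MEP was lowest of the normal groups (3.63, 4.78, 3.65 and 4.26 FPKM). Normal Bcl2 thus had its highest mean in CMP, although CMP and MPP overlapped and did not differ by the test (0.31 ± 0.17, adjusted p = 0.223), and ST-HSC and MPP did not overlap LT-HSC, GMP or MEP. Among normal cells it rose from LT-HSC to ST-HSC by 1.01 ± 0.17 (adjusted p = 0.000403) and fell from CMP to GMP by 1.15 ± 0.17 (5.98e-06) and from CMP to MEP by 2.88 ± 0.18 (4.1e-12). The rise from LT-HSC to ST-HSC was 1.02 ± 0.21 without the 4 libraries rich in granulocyte genes (adjusted p = 0.00271), and its adjusted p was 0.0661 in a fit of these 2 groups alone.

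In the leukaemias Bcl2 was at 2.78, 8.85 and 8.86 FPKM in STHSC:MA9, at 5.32 to 19.08 FPKM in MPP:MA9 (median 11.6), at 13.39, 13.98, 13.20 and 11.54 FPKM in CMP:MA9 and at 6.33 to 27.56 FPKM in GMP:MA9 (median 12.2). Every leukaemia started from ST-HSC, MPP or CMP was below every sample of its normal cell, whereas GMP:MA9 lay on both sides of GMP. Bcl2 fell by 1.70 ± 0.32 in STHSC:MA9 (adjusted p = 3.63e-05), by 1.26 ± 0.25 in MPP:MA9 (5.32e-05) and by 1.41 ± 0.30 in CMP:MA9 (0.000104). The difference of GMP:MA9 from GMP was -0.38 ± 0.27 (0.231), and without GMP:MA9 replicate 5, the 27.56 FPKM sample, it was -0.60 (0.0366). The test of unequal change among origins gave an adjusted p of 0.0375 for Bcl2, which became 0.0529 after median-ratio scaling, 0.115 after a correction for GC content and gene length, and 0.0665 with no filter, and was lost on leaving out any of 10 single samples. In the order of the 10 group means MEP and STHSC:MA9 were neighbours at the bottom and did not differ beyond their spread, nor did GMP, GMP:MA9, CMP:MA9, MPP:MA9 and LT-HSC from one to the next.

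Mcl1 (ENSMUSG00000038612, chr3:95462643-95467099, plus strand) encodes a short-lived anti-apoptotic protein that binds BAK1 and BIM. It was the most abundant anti-apoptotic member in all 49 samples. Normal levels were 56.00, 82.49, 63.86, 122.65 and 90.94 FPKM in LT-HSC, 66.83, 75.24, 57.35, 90.87 and 65.12 FPKM in ST-HSC, 71.53 to 83.80 FPKM in MPP (median 75.9), 74.09, 90.59, 52.05, 60.32 and 49.34 FPKM in CMP, 51.98, 60.57, 51.74, 48.22 and 47.14 FPKM in GMP, and 47.82, 54.10, 42.09 and 49.23 FPKM in MEP. STHSC:MA9 had 154.55, 113.91 and 135.15 FPKM, MPP:MA9 107.52 to 169.53 FPKM (median 139), CMP:MA9 131.48, 147.35, 121.07 and 120.29 FPKM, and GMP:MA9 106.80 to 143.07 FPKM (median 118). Each leukaemia group lay wholly above its normal cell, and the one normal sample inside the leukaemia range was LT-HSC replicate 4, which is rich in granulocyte genes. Mcl1 rose by 0.92 ± 0.16 in STHSC:MA9 (adjusted p = 8.91e-06), 0.83 ± 0.12 in MPP:MA9 (5.35e-07), 1.02 ± 0.15 in CMP:MA9 (2.48e-07) and 1.23 ± 0.13 in GMP:MA9 (9.76e-10). The rises were not shown to differ among origins (adjusted p = 0.256). Among normal groups Mcl1 varied by the F test (0.00108), but no single step from one stage to the next passed. The step from CMP to MEP did pass in 3 alternatives, at -0.40 without the 4 libraries (0.03), -0.49 without CMP replicate 5 (0.0372) and -0.40 without LT-HSC replicate 4 (0.046).

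Bcl2l1 (ENSMUSG00000007659, chr2:152593052-152657464, minus strand) encodes BCL-XL, the anti-apoptotic protein of late erythroid cells and platelets. LT-HSC spread most widely, at 3.86, 5.63, 4.28, 26.97 and 11.58 FPKM, and the top 2 values are the libraries rich in granulocyte and erythroid genes. ST-HSC had 9.44, 6.18, 4.60, 10.58 and 6.75 FPKM, MPP 2.51 to 4.11 FPKM (median 3.5), CMP 5.01, 4.06, 4.37, 3.51 and 2.75 FPKM, GMP 3.65, 1.86, 3.10, 0.86 and 2.67 FPKM and MEP 1.98, 1.73, 2.76 and 3.74 FPKM. The leukaemias fell within these values, with means of 5.38 ± 0.764 (SD, n = 3), 5.45 ± 3.19 (n = 6), 4.61 ± 1.99 (n = 4) and 3.12 ± 1 FPKM (n = 6) from STHSC:MA9 to GMP:MA9. No origin passed the test, with changes of -0.37 ± 0.30, 0.44 ± 0.23, 0.13 ± 0.27 and 0.30 ± 0.25 in the same order and adjusted p values of 0.104 to 0.697. Without MPP:MA9 replicate 3 the change in MPP:MA9 was 0.55 and passed (0.0459). Within the normal cells Bcl2l1 fell from ST-HSC to MPP by 0.90 ± 0.31 (0.0435), and without the 4 libraries the fall was 0.77 ± 0.24 (0.0238). That call was lost on leaving out any of 10 single ST-HSC or MPP samples. All 9 pairs of neighbours in the order of group means were within their spread.

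Bcl2a1b (ENSMUSG00000089929, chr9:89094047-89102665, plus strand) encodes an A1 protein, and its value may hold reads of the other A1 copies shown above. In normal cells it was 0.35, 0.80, 0.94, 1.78 and 0.00 FPKM in LT-HSC, 1.55, 0.87, 0.20, 0.79 and 0.22 FPKM in ST-HSC, 0.00 to 1.03 FPKM in MPP (median 0.585), 0.08, 0.00, 0.00, 0.30 and 0.56 FPKM in CMP, 0.47, 2.68, 1.16, 0.46 and 1.25 FPKM in GMP, and 0.00, 0.00, 0.18 and 0.00 FPKM in MEP. In leukaemias it was 8.83, 16.83 and 32.80 FPKM in STHSC:MA9, 3.17 to 17.50 FPKM in MPP:MA9 (median 9.69), 2.72, 5.09, 44.74 and 12.13 FPKM in CMP:MA9 and 0.82 to 19.58 FPKM in GMP:MA9 (median 5.7). Only GMP:MA9 replicate 2 (0.82 FPKM) lay inside the normal range. Since the filter let it in only through the leukaemias, the fit with no filter is given: Bcl2a1b rose by 3.45 ± 0.60 (adjusted p = 2.31e-05), 2.84 ± 0.48 (6.93e-06), 3.21 ± 0.55 (1.45e-05) and 1.67 ± 0.50 (0.00827) from STHSC:MA9 to GMP:MA9. The rises were not shown to differ (0.156 with the filter). In the same way the step from CMP to GMP was 0.83 ± 0.26 (0.0269). A related gene, Bcl2a1c, was at 0 in 47 samples and at most 0.28 FPKM, and Bcl2a1a was not analysed here.

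A1 is known from neutrophils as well as from leukaemias, so the mature granulocyte genes are given beside it. Their sum was 998 to 51973 FPKM in the leukaemias, with all 8 genes above 0 in each group, and across the 19 leukaemias its log2 value correlated with that of Bcl2a1b at r = 0.58 (n = 19, samples of 4 groups, each point 1 library). The leukaemia with the most Bcl2a1b, CMP:MA9 replicate 3, had 30769 FPKM of granulocyte genes against 1509, 8061 and 1953 FPKM in the other CMP:MA9 samples. In normal libraries high granulocyte genes were not accompanied by such levels: LT-HSC replicate 4 had 74479 FPKM of granulocyte genes and 1.78 FPKM of Bcl2a1b, ST-HSC replicate 4 had 42420 and 0.79 FPKM, and GMP had 1709 to 11369 and at most 2.68 FPKM. The correlation of Bcl2a1b with the monocyte sum over the same 19 leukaemias was r = -0.62, although that sum was higher in leukaemias than in normal cells. The part of either cell type in the rise of Bcl2a1b was not tested.

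**Figure D3:**
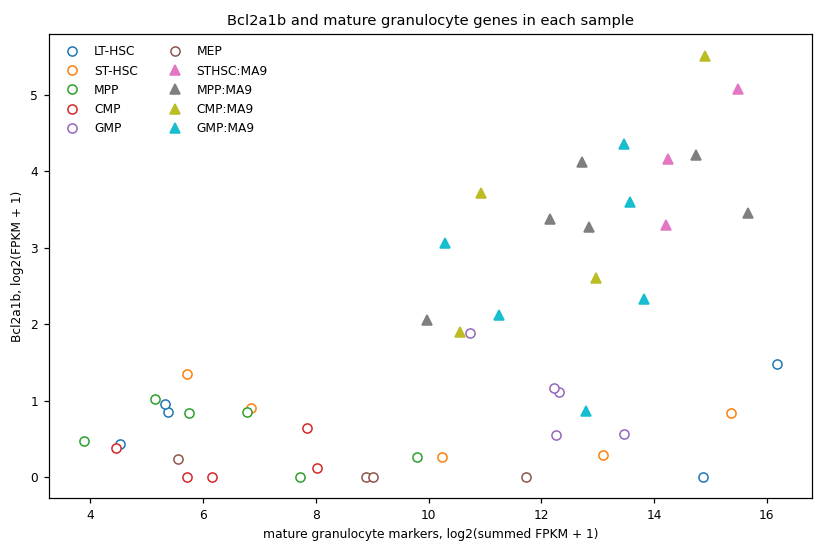
Bcl2a1b (vertical axis, log2(FPKM + 1)) against the summed level of 8 mature granulocyte genes (horizontal axis, log2(summed FPKM + 1)) in 49 samples; open circles are normal cells, filled triangles leukaemias, coloured by group. The triangles lie above the circles at like granulocyte levels, except GMP:MA9 replicate 2 at 0.82 FPKM of Bcl2a1b.

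Pooling the 4 anti-apoptotic genes shows how their mixture differed. Mcl1 made up 61.1 ± 4.13% (SD, n = 5) of their summed FPKM in CMP, 69.3 ± 5.76% (n = 5) in ST-HSC, 69.9 ± 2.65% (n = 6) in MPP, 72.7 ± 2.56% (n = 5) in GMP, 79.4 ± 2.13% (n = 5) in LT-HSC and 87.8 ± 1.82% (n = 4) in MEP. In leukaemias it was 79.9 ± 10.2% (n = 4) in CMP:MA9 to 83.7 ± 6.43% (n = 6) in GMP:MA9. The share of Bcl2 was 34.9 ± 3.92% in CMP and 26.5 ± 2.67% in MPP, and 7.99 ± 0.761% and 7.79 ± 4.06% in the leukaemias from those cells. The share of Bcl2a1b did not exceed 3.36% in any normal sample and was 0.538 to 24.2% in leukaemias. The summed level of the 4 genes was 55 ± 5.13 FPKM in MEP to 110 ± 5.78 FPKM in MPP, and 147 ± 12.8 FPKM in GMP:MA9 to 168 ± 24.1 FPKM in MPP:MA9. Set against the sum of Bax, Bak1, Bid, Bcl2l11 and Bbc3, it gave ratios of 1.37 ± 0.488 in LT-HSC, 1.17 ± 0.158 in ST-HSC, 1.05 ± 0.114 in MPP, 0.784 ± 0.198 in CMP, 0.49 ± 0.0403 in GMP and 0.404 ± 0.0612 in MEP. In the leukaemias the ratios were 1.11 ± 0.273 in STHSC:MA9, 0.926 ± 0.202 in MPP:MA9, 0.963 ± 0.0595 in CMP:MA9 and 0.844 ± 0.0929 in GMP:MA9. With the libraries rich in granulocyte genes left out, a choice made once these data had been seen, the ratio was 1.07 ± 0.318 in LT-HSC and 1.12 ± 0.025 in ST-HSC (n = 3 each), and the share of Mcl1 was 80.3 ± 2.2% and 67.8 ± 6.11%. These shares and ratios are of transcripts and were not tested. Transcripts of Bax (61.8% G or C) and Bak1 (57.1%) are richer in G and C than those of Mcl1 (49.1%) and Bcl2 (46.3%). The part of trends with GC content in the ratios was not tested.

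**Figure D4:**
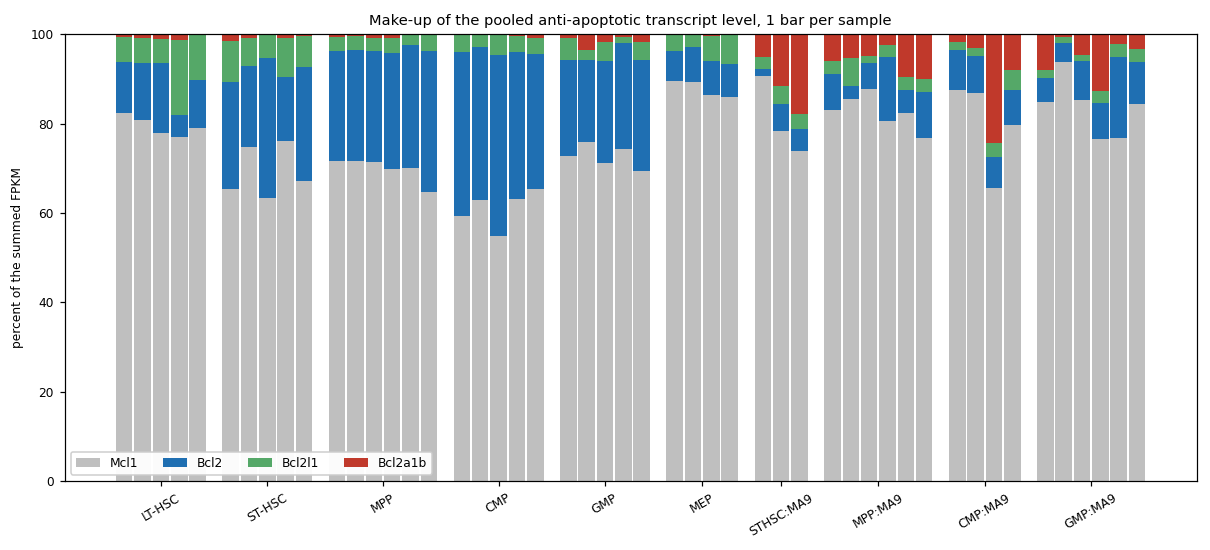
Share of each anti-apoptotic gene in the summed FPKM of Mcl1, Bcl2, Bcl2l1 and Bcl2a1b (vertical axis, percent), 1 stacked bar per sample in replicate order within each of 10 groups. Bcl2 (blue) takes 30.2 to 40.6% of the CMP bars, and Bcl2a1b (red) is visible mainly in the leukaemias, with 24.2% at most.

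Bax (ENSMUSG00000003873, chr7:52717065-52722268, minus strand) encodes the effector that moves from the cytosol to mitochondria. Its level in the normal groups was 28.03, 17.00, 31.79, 21.00 and 23.10 FPKM in LT-HSC and 32.51, 31.73, 26.31, 26.81 and 25.30 FPKM in ST-HSC and 23.33 to 36.90 FPKM in MPP (median 29.2). It reached 33.23, 35.29, 41.07, 34.25 and 50.82 FPKM in CMP, 37.72, 51.70, 39.78, 48.19 and 48.46 FPKM in GMP and 57.19, 51.04, 52.96 and 48.47 FPKM in MEP. The F test over the 6 normal groups passed (adjusted p = 7.91e-07), and of the single steps only CMP to MEP did, with a rise of 0.43 ± 0.15 (0.03) that was lost on leaving out any of 6 single samples. The steps of Bax depended on the processing. After correction for GC content and length it fell from ST-HSC to MPP (-0.49, 0.0249) and rose from MPP to CMP (0.48, 0.0193) and from CMP to GMP (0.72, 0.000404). The step from MPP to CMP also passed with the replicate block (0.45, 0.0468), and that from CMP to GMP after median-ratio scaling (0.44, 0.0209). Leukaemias had 41.04, 67.55 and 75.22 FPKM in STHSC:MA9, 45.65 to 77.51 FPKM in MPP:MA9 (median 54.6), 49.08, 54.95, 65.01 and 48.05 FPKM in CMP:MA9 and 28.06 to 85.79 FPKM in GMP:MA9 (median 63.2). STHSC:MA9 and MPP:MA9 lay above their normal cells without overlap, and CMP:MA9 and GMP:MA9 overlapped theirs. Bax rose by 1.04 ± 0.23 in STHSC:MA9 (0.00026) and 0.90 ± 0.18 in MPP:MA9 (5.16e-05). The value for CMP:MA9 was 0.48 ± 0.21 (0.0483), a call lost in 28 of 48 alternatives, and for GMP:MA9 0.39 ± 0.19 (0.0765), which was 0.60 (0.00167) without GMP:MA9 replicate 2, the 28.06 FPKM sample, 0.49 (0.0118) after correction for GC content and length and 0.47 (0.0263) with the block as well. Unequal change among origins was not shown (0.149), but passed without STHSC:MA9 replicate 1 (0.0446).

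Bak1 (ENSMUSG00000057789, chr17:27156755-27165954, minus strand) encodes the effector that resides in the mitochondrial membrane. In normal cells it was 44.65, 30.69, 21.06, 27.62 and 26.90 FPKM in LT-HSC, 38.00, 31.49, 30.35, 33.56 and 44.87 FPKM in ST-HSC, 33.07 to 51.39 FPKM in MPP (median 43.7), 65.77, 61.77, 45.81, 57.10 and 63.19 FPKM in CMP, 66.63, 58.81, 48.39, 51.94 and 55.20 FPKM in GMP and 56.08, 46.31, 53.59 and 48.04 FPKM in MEP. The stem cell groups were lowest, and MPP to CMP was the step that passed, with a rise of 0.46 ± 0.14 (adjusted p = 0.03) that was 0.41 (0.075) after median-ratio scaling and was lost on leaving out any of 5 single samples. MPP:MA9 was the highest group at 60.88 to 76.70 FPKM (median 66.7), CMP:MA9 had 54.88, 51.75, 73.61 and 62.31 FPKM, GMP:MA9 38.10 to 56.58 FPKM (median 44.5) and STHSC:MA9 34.19, 39.33 and 48.02 FPKM. Bak1 rose by 0.67 ± 0.11 in MPP:MA9 without overlap (4.85e-06), fell by 0.30 ± 0.12 in GMP:MA9 (0.0329) and was 0.18 ± 0.14 and 0.04 ± 0.13 from normal in STHSC:MA9 and CMP:MA9 (0.316 and 0.798). These changes differed among origins (0.000199, and 0.000251 after correction for GC content and gene length). The fall in GMP:MA9 was lost on leaving out any of 5 single samples, and the rise in the mean of the 4 origins (0.15 ± 0.06, 0.0356) on leaving out any of 9.

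Bcl2l11 (ENSMUSG00000027381, chr2:127951774-127988283, plus strand) encodes BIM, a BH3-only protein that binds every anti-apoptotic member and is a target of FOXO factors. In normal cells it was 4.50, 4.78, 5.03, 15.03 and 9.52 FPKM in LT-HSC, with the last 2 in the libraries rich in granulocyte genes, and 7.59, 10.52, 6.00, 8.18 and 6.88 FPKM in ST-HSC. It was 10.33 to 19.96 FPKM in MPP (median 13), 11.17, 15.11, 10.23, 10.95 and 14.65 FPKM in CMP, 7.53, 6.51, 6.35, 4.20 and 6.65 FPKM in GMP and 11.43, 8.30, 8.97 and 12.03 FPKM in MEP. It rose from ST-HSC to MPP by 0.76 ± 0.22 (adjusted p = 0.0169, and 0.00869 without the 4 libraries) and fell from CMP to GMP by 0.89 ± 0.23 (0.0034), where the groups did not overlap. The first became 0.65 (0.0724) after median-ratio scaling and the second -0.66 (0.0569) after correction for GC content and length. The 4 leukaemia groups overlapped each other, at 13.28, 12.90 and 14.56 FPKM in STHSC:MA9, 8.87 to 16.47 FPKM in MPP:MA9 (median 12.5), 14.61, 15.40, 15.24 and 12.26 FPKM in CMP:MA9 and 8.81 to 17.02 FPKM in GMP:MA9 (median 13.6). Set against their normal cells, Bcl2l11 rose by 0.74 ± 0.21 in STHSC:MA9 (0.00312) and 0.99 ± 0.17 in GMP:MA9 (8.25e-06), with no overlap in either, and was 0.21 ± 0.19 in CMP:MA9 (0.354) and -0.12 ± 0.16 in MPP:MA9 (0.538). The change differed among origins (0.00148).

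Bbc3 (ENSMUSG00000002083, chr7:16894965-16903554, plus strand) encodes PUMA, a BH3-only protein induced by p53. With Bcl2a1b it was one of the lowest members in normal cells, at 0.35, 0.30, 0.35, 0.83 and 0.18 FPKM in LT-HSC, 0.25, 0.18, 0.24, 1.40 and 0.41 FPKM in ST-HSC, 0.39 to 1.10 FPKM in MPP (median 0.63), 0.75, 0.83, 0.29, 0.30 and 1.05 FPKM in CMP, 0.23, 0.23, 0.11, 0.00 and 0.09 FPKM in GMP and 0.78, 0.52, 0.75 and 0.66 FPKM in MEP. Leukaemias had 1.04, 0.30 and 0.47 FPKM in STHSC:MA9, 0.61 to 2.26 FPKM in MPP:MA9 (median 1.06), 0.71, 1.13, 1.18 and 0.95 FPKM in CMP:MA9 and 0.62 to 1.34 FPKM in GMP:MA9 (median 0.89). GMP:MA9 did not overlap GMP. With no filter on low values, Bbc3 rose by 0.75 ± 0.17 in GMP:MA9 (adjusted p = 0.000698) and 0.43 ± 0.16 in MPP:MA9 (0.0363), and fell from CMP to GMP by 0.52 ± 0.16 (0.0244). Values near 1 FPKM rest on few reads, and the number of reads is not known here.

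Bid (ENSMUSG00000004446, chr6:120841948-120866871, minus strand) encodes the BH3-only protein that caspase-8 cleaves to link death receptors to mitochondria. Its level in normal cells was 16.94, 23.36, 12.94, 14.75 and 10.65 FPKM in LT-HSC, 14.72, 15.92, 15.77, 12.42 and 14.72 FPKM in ST-HSC, 17.21 to 23.16 FPKM in MPP (median 18.3), 30.24, 29.29, 23.60, 22.83 and 28.25 FPKM in CMP, 41.00, 44.35, 35.45, 33.21 and 36.72 FPKM in GMP and 26.08, 20.45, 20.45 and 23.67 FPKM in MEP. Bid thus climbed toward GMP, by 0.48 ± 0.13 from MPP to CMP (adjusted p = 0.0157) and by 0.49 ± 0.14 from CMP to GMP (0.00679). From ST-HSC to MPP it did not pass, but did in a fit of those 2 groups (0.34, 0.0375) and without LT-HSC replicate 2 (0.0292) or 5 (0.047). It was 30.78, 38.84 and 47.10 FPKM in STHSC:MA9, 28.24 to 68.47 FPKM in MPP:MA9 (median 43.5), 40.32, 39.24, 36.77 and 43.49 FPKM in CMP:MA9 and 42.03 to 65.87 FPKM in GMP:MA9 (median 51.6). Every leukaemia group except GMP:MA9 lay wholly above its normal cell. Bid rose by 1.33 ± 0.17 (3.72e-08), 1.18 ± 0.13 (1.47e-09), 0.56 ± 0.16 (0.00216) and 0.46 ± 0.14 (0.00542) from STHSC:MA9 to GMP:MA9, and these rises differed among origins (0.0016). The F test among the 6 normal groups gave an adjusted p of 1.46e-08 for Bid, and that among the 4 leukaemias did not pass (0.26).

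The leukaemias were then compared with each other, over 12128 genes that averaged at least 1 FPKM in them, which here included Bbc3. Bak1 was the only 1 of 9 members with any difference among the 4 by the F test (adjusted p = 0.00267, background 13.3%). It was lower in STHSC:MA9 than in MPP:MA9 by 0.74 ± 0.14 (0.00277, background 11.2%) and higher in MPP:MA9 than in GMP:MA9 by 0.57 ± 0.11 (0.00235, background 15.9%). Bak1 transcripts are 57.1% G or C, and across 11655 genes the level in MPP:MA9 increased with GC content, with slopes of 0.186 to 0.262 log2 units for each 10 percentage points, whereas the slopes were -0.198 to -0.13 in STHSC:MA9 and -0.207 to -0.0936 in GMP:MA9. After correction for GC content and gene length the 2 differences were -0.33 ± 0.15 (0.234) and 0.15 ± 0.12 (0.575) and the F test gave 0.337, while Bax was 0.67 ± 0.17 lower in MPP:MA9 than in GMP:MA9 (0.035). A library-wide GC trend and the origin cannot be told apart for Bak1. No member passed for STHSC:MA9 against CMP:MA9 (background 0.635%), although Bak1 did without GMP:MA9 replicate 2 (-0.57, 0.0441), or for STHSC:MA9 against GMP:MA9 (1.1%), MPP:MA9 against CMP:MA9 (0.157%) or CMP:MA9 against GMP:MA9 (1.04%). At an unadjusted p below 0.05 those comparisons held 2, 3, 0 and 2 of 9 members, where 15.5%, 18.9%, 9.35% and 13.6% of all genes did so, with Bcl2 lower in STHSC:MA9 than in CMP:MA9 by 0.97 ± 0.42 and than in GMP:MA9 by 0.85 ± 0.39.

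Along the normal hierarchy, tested over 12367 genes with 7 members above the filter, all 7 differed among the 6 groups by the F test, where 78.4% of all genes did. The step from LT-HSC to ST-HSC moved 1 member (Bcl2, background 9.19%), ST-HSC to MPP moved 2 (Bcl2l1 and Bcl2l11, 18.9%), MPP to CMP moved 2 (Bak1 and Bid, 14.5%), CMP to GMP moved 3 (Bcl2, Bcl2l11 and Bid, 36.7%) and CMP to MEP moved 2 (Bcl2 and Bax, 31.6%). The median of all genes moved by 0.12, 0.10, 0.03, -0.20 and -0.14 over these steps as deposited, and by less than 0.02 after median-ratio scaling. Only the changes of Bcl2 from LT-HSC to ST-HSC, CMP to GMP and CMP to MEP exceeded 2-fold, and the first (1.01 ± 0.17) was within its SE of 2-fold. Of all genes, 2.26%, 3.44%, 4.32%, 11.2% and 11.8% passed with more than 2-fold over these steps in the order above. Bcl2 thus fell on both branches from CMP. Bid rose toward GMP and was -0.23 ± 0.15 from CMP toward MEP (0.248). The branches share the CMP samples, and their difference was not tested.

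The wider cell death pathway was read from lists of named genes, again in the mean of the 4 origins. Of 5 other BH3-only genes, 3 passed the filter and all 3 rose, but 2 of them, Pmaip1 and Bmf, averaged 0.858 and 0.885 FPKM in the normal samples and passed the filter through the leukaemias, so that they had to differ. They and Fas below are therefore given from the fit with no filter, chosen after seeing the data. Pmaip1, which encodes the MCL1-binding protein NOXA, was 0.00 to 2.75 FPKM across the normal samples and 8.26 to 30.41 FPKM in the leukaemias, a rise of 3.08 ± 0.13 (adjusted p = 1.14e-20). Bmf, which encodes a BH3-only protein released from the cytoskeleton, rose by 2.49 ± 0.16 (7.46e-16), from at most 2.94 FPKM in normal samples to 2.78 to 31.71 FPKM in leukaemias, so that the ranges just met. Of 4 other anti-apoptotic genes only Bcl2l2 passed the filter, and it did not pass the test (0.06, 0.408). Of 5 further genes with a BCL2 fold, 3 were tested, of which 1 rose and 2 fell, Bcl2l12 by 0.80 ± 0.08 (5.77e-11). The 1 that rose was Bcl2l14 (0.42 ± 0.10, 0.000512), with means of 0.772 FPKM in the normal samples and 1.38 FPKM in the leukaemias. It too passed the filter through the leukaemias, and its value is from the fit with the filter, so its rise is no support. By origin it passed only in STHSC:MA9 (0.80 ± 0.23, 0.00484).

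Downstream, 4 of 15 genes of the apoptosome and caspases rose and 7 fell. Birc3, which encodes a ubiquitin ligase of the NF-kB pathway, rose by 1.53 ± 0.11 (1.02e-14), and Apaf1, the scaffold that assembles on cytochrome c, rose by 1.36 ± 0.06 (3.38e-20) from a mean of 21.9 to 55.4 FPKM. In the death receptor arm 4 of 7 tested genes rose and 1 fell. Fas, a death receptor whose signal BID relays and which also passed the filter through the leukaemias, rose by 2.21 ± 0.16 (4.6e-14), from 0.685 to 6.6 FPKM, and Tnfrsf1a, a TNF receptor, rose by 0.91 ± 0.10 (1.81e-10). Of 9 tested genes of the p53 axis 7 rose and 1 fell. Cdkn1a, a p53 target that arrests the cell cycle, rose by 2.23 ± 0.20 (1.88e-12) and Trp53inp1 by 1.48 ± 0.17 (1.21e-09), while the gene that fell was Trp53 itself, by 1.20 (9.13e-18), named after its value was seen. In the list of FOXO factors and enzymes of MCL1 turnover, 3 of 6 fell and none rose. Foxo3, a transcription factor that induces Bcl2l11, fell by 0.79 ± 0.08 (8.91e-11), and Huwe1, a ubiquitin ligase for MCL1, by 0.44 ± 0.06 (1.58e-07). Foxo3 did not follow the mean at every origin, with a fall of 1.55 ± 0.19 in STHSC:MA9 (1.22e-08) and a rise of 0.50 ± 0.16 in GMP:MA9 (0.00589). In GMP:MA9 neither Huwe1 (-0.07 ± 0.12, 0.657) nor Tnfrsf1a (0.19 ± 0.18, 0.399) passed. Against the background of 34.4% higher and 42.9% lower, the medians of the 4 lists with at least 6 tested genes ran from -0.23 (FOXO and MCL1 turnover) to 0.61 (p53 axis), beside -0.08 for all genes.

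Finally, genes whose 10 group means followed each member most closely were sought among 12148 other genes. Bcl2 was closest to Runx1 (r = 0.957) and Cd34 (0.947), Mcl1 to AI467606 (0.994) and Capn2 (0.992), Bcl2l1 to Inpp5a (0.923) and Cmas (0.916), and Bcl2a1b to Rnd1 (0.994) and Flna (0.994). Bax was closest to Eapp (0.973) and Wdr3 (0.960), Bak1 to Hmga1 (0.960) and Tbc1d13 (0.948), Bcl2l11 to Stk19 (0.925) and Rmnd5b (0.923), Bbc3 to Fbrsl1 (0.975) and Nr1h2 (0.967), and Bid to Zbtb44 (0.978) and Thap11 (0.974). These are Pearson correlations over 10 points, chosen as the highest of many. Among the 49 samples after removal of the group means, Bcl2 had r = 0.66 with Cd34, whose protein was used to sort the normal cells, and 0.62 with Runx1, while the values were 0.69 for Bcl2a1b with Rnd1, 0.65 for Bak1 with Hmga1 and 0.61 for Bax with Eapp. The corresponding values were 0.02 for Bcl2l11 with Stk19 and -0.01 for Bid with Zbtb44. Library depth and GC trends differ between the samples and can move genes together, so these are descriptions.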

How the data were processed

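RNA was sequenced from 49 samples after NuGen Ovation amplification. The authors deposited 1 table of FPKM values, and the submitters' processing notes name RSEM and mm9. The aligner and the annotation are not given in the sources used here. Of 68 sample columns, 49 matched a label and 19 were not used. Symbols were matched to 33068 of 38253 identifiers.

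Values were taken as log2(FPKM + 1). Each fit kept genes with a mean of 1 FPKM or more and used limma 3.58.1 (R 4.3.3, empirical Bayes with a trend, Benjamini-Hochberg adjustment over all tested genes, passing below 0.05). The 3 fits were of the 8 groups of the 4 origins, the 4 leukaemias and the 6 normal groups. Tables and plots used Python 3.11.15, pandas 2.3.3, numpy 2.4.6 and matplotlib 3.10.9. The fit was tested on simulated data. FPKM keep no read counts, so no counting interval is given. No 2 samples were identical.

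The members, lists and tests were chosen with earlier results of these data known. Named besides the members were up to 2 passing genes per list with the largest change, Pmaip1, Bcl2a1c and the 2 genes most like each member. Replicate numbers of ST-HSC and LT-HSC went together (correlation of deviations at least 0.142 in each of 5 pairs, mean 0.285), and the block did not change that call. Alternatives were another pseudocount, no filter, median-ratio scaling, a correction of each sample for its trend with GC content and gene length, fits of fewer groups, a replicate block and leaving out samples.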

Additional observations from a re-analysis of the deposited data

Results flagged for a closer look

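Of 81 groups of 4 to 6 samples examined on the log2(FPKM + 1) scale, 2 held 1 sample far from the others. Chance gives about 1 in 20 groups, a rate that 2 of 81 does not exceed. Bcl2a1b in MEP replicate 3 was 0.18 FPKM while the other MEP samples were at 0, so its gap was the whole range (ratio 1). Bbc3 in ST-HSC replicate 4 was 1.40 FPKM against 0.18 to 0.41 FPKM in the other ST-HSC samples, a gap of 0.749 of the range, and that library is one of those rich in granulocyte genes.

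By limma's F test, 4 members changed unequally across the cells of origin: Bak1 (adjusted p = 0.000199), Bcl2l11 (0.00148), Bid (0.0016) and Bcl2 (0.0375). Bak1 rose in MPP:MA9 and fell in GMP:MA9, Bcl2l11 rose in STHSC:MA9 and GMP:MA9, and Bid rose at all 4 origins by 0.46 to 1.33 on the log2 scale.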

How the results depend on the processing

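FPKM keep no read counts, so the precision of low members such as Bbc3 is unknown, and organ and disease cannot be told apart. The number of members that passed moved by more than 1.5 times as follows. After correction for GC content and gene length, alone and with the replicate block, it was 0 for STHSC:MA9 against MPP:MA9 and for any difference among the 4 leukaemias, and with the block also 0 for MPP:MA9 against GMP:MA9. It was 0 for ST-HSC against LT-HSC in a fit of those 2 groups, 1 for MPP against ST-HSC with a pseudocount of 0.1, no filter, median-ratio scaling or the replicate block, 1 for CMP against MPP with scaling and 5 for GMP against CMP with no filter. Leaving out 1 sample gave 0 to 1 members for STHSC:MA9 against CMP:MA9 and 1 to 3 for MPP against ST-HSC, CMP against MPP and MEP against CMP. With the correction, Bax from ST-HSC to MPP turned to -0.49 (adjusted p = 0.0249), and to -0.54 (0.0336) with the block, and Bak1 from CMP to GMP turned to 0.33 (0.0329) with both. The causes were not tested.

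The replicate block gave 6, 6, 5 and 4 passing members for the leukaemias from ST-HSC, MPP, CMP and GMP and 3 for unequal change among origins, where Bcl2 was lost (0.0781), and Bak1 in GMP:MA9 was lost (0.0518). Outside ST-HSC and LT-HSC not every pair's correlation was over 0.1, so a pairing by number was not shown there. Mean correlations in those comparisons ran from -0.211 (STHSC:MA9 against MPP:MA9) to 0.156 (GMP against CMP). In the last, 4 of 5 GMP samples correlated best with the CMP sample of their own number. Whether same-numbered samples share a batch was not tested. Scaling moved the share of calls that were higher from 20.6 to 42.1% (STHSC:MA9 against MPP:MA9), 28.6 to 50.8% (against CMP:MA9), 57.5 to 69.9% (against GMP:MA9), 70.7 to 55.2% (MPP:MA9 against GMP:MA9), 81.7 to 57.2% (ST-HSC against LT-HSC), 76.7 to 53.6% (MPP against ST-HSC), 26.2 to 51% (GMP against CMP) and 27.1 to 49.6% (MEP against CMP).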
